A study of Capra hircus with 20 samples.

Results

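The comparison described here set hypothalamus libraries with a low share of aligned reads against those with a high share, and asked which kinds of gene differed with it. The series holds 20 libraries of hypothalamus RNA from female Jining grey goats, 5 goats each at 1 day (D1), 60 days (M2), 120 days (M4) and 180 days (M6) of age. RNA was depleted of ribosomal RNA and made into strand-specific libraries, and each library came from a different goat, with no treatment. Within the 15 M2, M4 and M6 libraries, those with under 90% of their clean reads aligned to the goat genome formed the low class and those with 90% or more the high class. This gave 4 low libraries and 11 high libraries. The low class held M2 replicate 1 (86.42%), M2 replicate 3 (86.87%), M4 replicate 3 (88.08%) and M6 replicate 3 (86.05%), and the high class held 3 M2, 4 M4 and 4 M6 libraries. The library nearest below the cut was M4 replicate 3 and the nearest above it was M6 replicate 2 at 90.62%, followed by M4 replicate 4 at 90.92%, and the high class reached 95.1%. The same 4 libraries also had the lowest shares of uniquely aligned reads, between 75.1% and 84.03%. The D1 libraries aligned at 94.82% to 96.19%, held no low library, and were left out of the comparison.

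The alignment rate of a library is the share of its reads that find a place in the reference genome. Reads fail to align when they carry sequence errors, come from foreign or unassembled sequence, or are too short or too altered to place, and degraded RNA can lower the rate as well as change which transcripts are recovered. The hypothalamus is a mixture of neurons that make peptide hormones and fast transmitters with oligodendrocytes, astrocytes, microglia, vessels and the ciliated ependymal lining of the ventricle, so that the place of the cut through the tissue also changes a library. The alignment rate was recorded per library and no RNA integrity value was used here. A bulk library gives one value per gene, and fewer cells of a type and less RNA per cell cannot be told apart in it.

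Levels are FPKM, fragment counts scaled for transcript length and for the number of mapped fragments in the library, and a difference is low minus high on the log2(FPKM + 0.1) scale with stage in the fit, which understates the change of genes near 0. The 4 low libraries had 82350226 to 92056562 clean reads. Reads of M2 replicate 3 had a GC content of 52.56% and those of M6 replicate 5, a high library, 48.42%, and the other 13 lay between 42.87% and 45.89%. The 10 highest genes of each library held 24.3%, 40.8%, 13.2% and 24.5% of the summed FPKM in the low libraries and 9.76% to 24.6% in the high libraries. Their means were 25.7% ± 11.3 (SD, n = 4) and 17.5% ± 3.78 (SD, n = 11), with p = 0.068 in a two-sided exact permutation test within stages (smallest possible p 0.004, adjusted p = 0.238 over 7 library measures). KLHDC1 alone held 23.9% in M2 replicate 3 and 9.83% in M6 replicate 3, against 4.32% in M2 replicate 1, 1.37% in M4 replicate 3 and 0.836% to 4.73% in the high libraries. Summed FPKM, the number of genes at 0.1 FPKM or more and the shares of mitochondrial, ribosomal protein and LOC-named genes gave p between 0.236 and 0.996. Of the marker lists for the labelled tissue, 16 hypothalamic transcription factors summed to 5.17 to 17.6 FPKM in the low and 1.07 to 45.0 FPKM in the high libraries, and 21 hypothalamic neuropeptides to 29.0 to 103 FPKM and 32.7 to 1101 FPKM.

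More genes were called lower than higher in the low libraries, on the scale used here. Of the gene lists, which have no test of their own, neuron markers had 7 of 14 members called lower and presynaptic genes 5 of 16, while very long neuronal genes had 0 of 19 called and nuclear respiratory chain genes 1 of 56. Of 16730 genes tested by limma, 145 were higher in the low class (0.867% of genes tested) and 343 were lower (2.05%), at a Benjamini-Hochberg adjusted p under 0.05 and a log2 difference of at least 1 in size. Genes that met both conditions are called changed below, and each p is limma's. By adjusted p alone, 154 (0.921%) were higher and 592 (3.54%) lower, and by an unadjusted p under 0.05, 1105 (6.6%) and 2626 (15.7%). The median difference of all genes was -0.10. The called genes that fell had a median mean level of 15.7 FPKM and those that rose one of 2.69 FPKM, against 5.08 FPKM for all genes. Of the 145, 141 were higher in each of M2, M4 and M6, and of the 343, 338 were lower in each. Medians by stage were 1.92, 1.65 and 1.63 for the genes that rose and -1.38, -1.14 and -1.92 for those that fell. The fit that chose these genes used the same libraries and favours differences shared by the stages, so these values are a description. M4 and M6 each had a single low library, so a stage value there rests on 1 goat.

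Non-overlap of the classes was counted apart from the test. All 4 low libraries lay above all 11 high libraries for 100 genes (0.598% of genes tested) and below them for 257 genes (1.54%), and 69 and 99 of these were also called. The split between rises and falls depended on the scale. Rises were 29.7% of calls here, 43.6% after quantile normalization (137 against 177), 43.5% after median-ratio scaling (136 against 177) and 49.7% when each library was rescaled without its 10 highest genes (99 against 100), where the median of all genes was 0.05. Under each of these 3 scales every one of the 145 and 343 genes kept its sign. Other definitions of the classes left fewer calls. A cut of 92% gave 2 rises and 0 falls (272 and 397 at an unadjusted p under 0.05). The unique alignment rate as a continuous term gave 38 and 31, with the size condition applied per 5 points of rate. At an unadjusted p under 0.05 that fit gave 1143 and 2612 genes, near the 1105 and 2626 of the class fit. The counts also rested on single libraries: 38 rose and 106 fell without M2 replicate 1, 46 and 138 without M2 replicate 4, 72 and 224 without M4 replicate 3, and 241 and 374 without M6 replicate 3. Rises numbered 92 without M2 replicate 5 and 96 without M6 replicate 2. With the 2 low M2 libraries left out together, 8 rose and 33 fell. Of 62 called genes described below, 18 kept their call without each of the 15 libraries in turn, and 39 lost it without M2 replicate 1, 27 each without M2 replicate 4 and M4 replicate 3, and 21 without M6 replicate 3.

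All 14 tested neuron markers were lower, 7 of them by the call, with a median of -1.58. STMN2, a regulator of axonal microtubules (chromosome 14, 39194912 to 39253321 in ARS1.2), stood at 57.1, 104, 115 and 14 FPKM in M2 replicates 1 and 3, M4 replicate 3 and M6 replicate 3, and the order is the same for the values of the low libraries that follow. The 11 high libraries ranged from 130.5 to 379.7 FPKM with a median of 239, so that the classes did not overlap, and STMN2 fell by 2.20 ± 0.33 (SE; adjusted p = 0.01), a 4.60-fold lower level. UCHL1, a neuronal ubiquitin hydrolase, had 95.5, 246, 176 and 84.1 FPKM against 241 to 974 (median 464), and fell by 1.86 ± 0.31 (adjusted p = 0.011). Only M2 replicate 3 reached the lowest high library. SNAP25, a part of the vesicle fusion complex, had 68.1, 239, 369.9 and 39.2 FPKM against 288 to 1562 (median 515), and fell by 2.04 ± 0.42 (adjusted p = 0.019), with M4 replicate 3 inside the high range. ELAVL4, a neuronal RNA-binding protein, had 6.55, 8.31, 13.1 and 4.50 FPKM against 8.47 to 46.7 and fell by 1.41 ± 0.31 (adjusted p = 0.024). STMN2 and UCHL1 kept the call without any of the 15 libraries, while SNAP25 lost it without M2 replicate 1 and without M6 replicate 3, at estimates between -2.48 and -1.54 over all 15.

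The neuron list summed to 651, 1084, 1394 and 246 FPKM in the low libraries and 1355 to 3893 FPKM in the high ones, with none of its members at 0 in all 15. M4 replicate 3 lay within the high range, and the other low libraries were below it. By stage the list's median was -1.36 in M2, -0.40 in M4 and -3.22 in M6, and it was -0.86 without M6 replicate 3. The size of the neuronal fall therefore varied among the low libraries, being least in M4 replicate 3 and greatest in M6 replicate 3. M2 replicate 1 and M6 replicate 3 aligned at nearly the same rate, 86.42% and 86.05%, with sums of 651 and 246 FPKM. With 1 low library each in M4 and M6, the parts of alignment rate, stage and goat in this variation among the low libraries cannot be told apart. All low libraries but M2 replicate 1 also carry replicate number 3, and whether that number stands for something shared was not tested further. The part of cell composition in this fall was not tested.

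**Figure D1:**
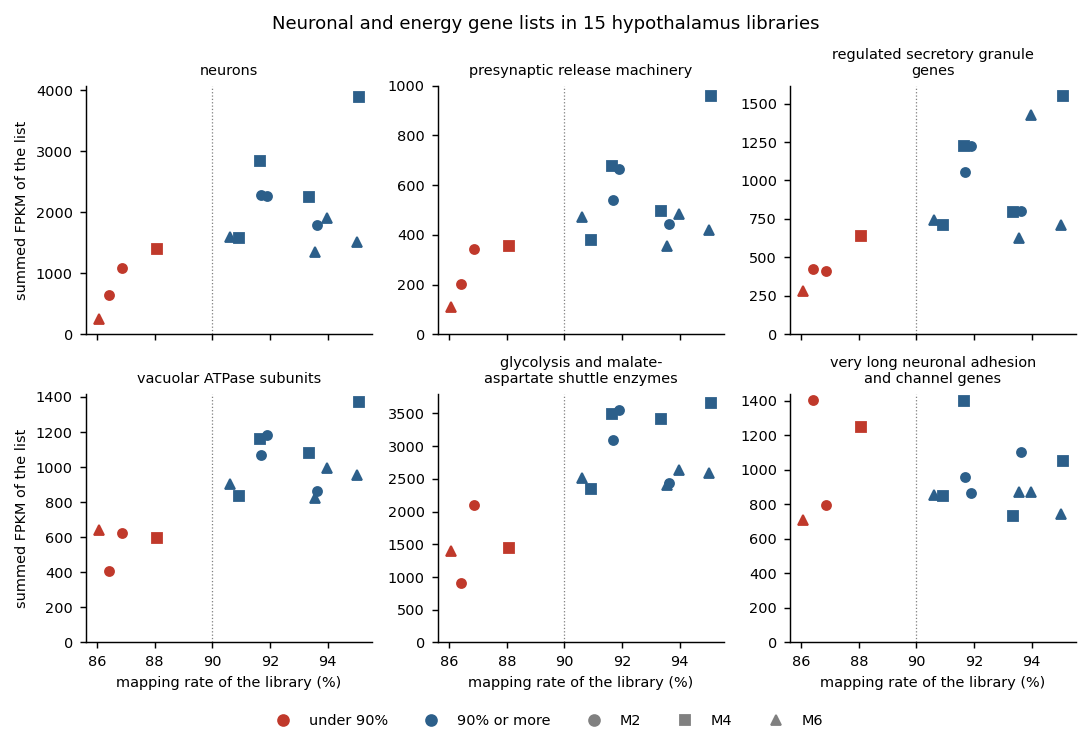
Summed FPKM of 6 gene lists (vertical axes, from 0) against the alignment rate of each library in percent (horizontal axes), for the 15 M2, M4 and M6 libraries, 1 point a library; colour gives the class, shape the stage, and the dotted line the 90% cut. The 4 low libraries lie below all high libraries for the presynaptic genes, by a narrow margin (355.3 against 356.0 FPKM). They also do so for the vacuolar ATPase subunits and for the glycolysis and malate-aspartate shuttle enzymes, lists chosen after the values were seen. The very long neuronal genes overlap between the classes.

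The machinery of transmitter release followed the neuron markers. Of 16 presynaptic genes all were lower in the fit, 5 by the call, with a median of -1.11. The list summed to 203, 342, 355 and 111 FPKM in the low and 356 to 958 FPKM in the high libraries, with no overlap. Among the genes not called, CPLX1 was lower only through M6 replicate 3, where it was listed at 0. In the other low libraries it had 10.2, 9.76 and 9.09 FPKM against 2.68 to 11.5 (median 5.26). Its stage differences were 0.80 in M2, 0.80 in M4 and -5.56 in M6. NSF, the ATPase that takes apart fusion complexes after release, had 24.2, 54.9, 87.2 and 19.6 FPKM against 76.5 to 227 (median 122), and fell by 1.66 ± 0.32 (adjusted p = 0.015). RAB3A, a vesicle GTPase, had 8.49, 50.3, 18.8 and 5.48 FPKM against 29.3 to 104, and fell by 1.88 ± 0.38 (adjusted p = 0.019). SYP, the vesicle membrane protein synaptophysin, had 11.4, 45.4, 27.0 and 9.86 FPKM against 35.5 to 136 and fell by 1.67 ± 0.37 (adjusted p = 0.024). For RAB3A and SYP, M2 replicate 3 lay inside the high range and the other low libraries below it. SYT4, a synaptotagmin, fell by 1.79 ± 0.38 (adjusted p = 0.021), from 19.8 to 105 FPKM in the high class to 10.4, 12.5, 35.1 and 4.90 FPKM.

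Genes of the regulated secretory granule, in which peptide hormones are stored and processed, come next. This list was chosen after the values were seen. All 12 members were lower, 6 by the call, with a median of -1.52, and the sums were 425, 414, 638 and 278 FPKM against 628 to 1553 FPKM. RESP18, an endocrine granule protein (chromosome 2, 28537448 to 28542998), had 14.4, 10.3, 5.27 and 1.90 FPKM against 16.3 to 171 (median 42.9), and fell by 3.05 ± 0.53 (adjusted p = 0.011), an 8.30-fold lower level with no overlap. SCG5, the chaperone of a prohormone convertase, had 38.8, 47.9, 46.5 and 14.1 FPKM against 70.9 to 276, and fell by 2.16 ± 0.37 (adjusted p = 0.011), again without overlap. CADPS, which primes granules for release, had 15.7, 15.9, 21.8 and 4.18 FPKM against 19.2 to 61.6 and fell by 1.48 ± 0.25 (adjusted p = 0.011). Chromogranin B (CHGB) fell by 2.20 ± 0.54 (adjusted p = 0.035). RESP18, SCG5 and CADPS kept the call without any of the 15 libraries, and CHGB lost it without 6 of them in turn.

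GABA-A receptor subunits, which form the chloride channels of fast inhibition, were a further list chosen after the values were seen. Of 14 subunits tested, 13 were lower and 5 fell by the call, with a median of -1.37. GABRB2 had 9.56, 29.3, 26.9 and 3.29 FPKM against 20.7 to 182 and fell by 2.19 ± 0.42 (adjusted p = 0.015). GABRA3 had 5.42, 4.55, 6.82 and 0.587 FPKM against 6.44 to 23.5 and fell by 1.93 ± 0.40 (adjusted p = 0.019). In both subunits M2 replicate 1 and M6 replicate 3 lay below the high class and M4 replicate 3 inside it. The summed FPKM of the subunits overlapped, at 611, 194, 337 and 201 in the low and 211 to 825 in the high libraries.

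Peptide genes of the hypothalamus were low in the low class without passing the test. Of 18 neuropeptide genes, 16 were lower, none was called, and the median was -1.39. PDYN, the prodynorphin gene, had 1.02, 3.51, 1.13 and 2.81 FPKM against 1.27 to 100.4 (median 13.8), a difference of -2.93 ± 1.00 (adjusted p = 0.098). NTS, the neurotensin gene, had 12.8, 3.87, 1.40 and 4.64 FPKM against 4.98 to 151, a difference of -2.15 ± 0.72 (adjusted p = 0.094). NPY, the neuropeptide Y gene, was listed at 0 in M6 replicate 3 and reached 1.21, 0.206 and 0.554 FPKM in the others, against 0 to 11.3 FPKM in the high libraries. The high libraries spread widely here, since the list summed to 32.7 to 1101 FPKM in them, and the low sums of 90.2, 34.9, 29.0 and 103 FPKM lay inside or just below that range. Of 13 hypothalamic transcription factors tested, none was called, with a median of -0.44 (0.63 in M2, -0.14 in M4 and -1.76 in M6).

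Very long genes for neuronal adhesion molecules and channels, also expressed by neurons, showed no common direction. Of 19 tested, 9 were higher and 10 lower, none was called, and the median was -0.18 (0.05 in M2, 0.49 in M4 and -0.97 in M6). DLG2, a postsynaptic scaffold, had 119, 77.8, 143 and 58.5 FPKM against 47.7 to 82.9 (median 61.9), a difference of 0.59 ± 0.21 (adjusted p = 0.12). OPCML, a neuronal cell adhesion molecule, had 7.08, 1.87, 1.3 and 5.09 FPKM against 1.44 to 94.5, a difference of -2.41 ± 0.76 (adjusted p = 0.077). The list summed to 1405, 796, 1246 and 711 FPKM in the low and 731 to 1399 FPKM in the high libraries. M2 replicate 1 had the highest sum of these genes among the 15 libraries and a neuron marker sum below all high libraries. The difference between this list and the neuron markers was not tested.

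The vacuolar ATPase acidifies synaptic vesicles, granules and lysosomes. Of its 19 tested subunits, a list chosen after the values were seen, 16 were lower and 5 fell by the call, with a median of -0.79 and stage medians of -0.79, -0.74 and -0.68. The subunits summed to 408, 623, 599 and 639.8 FPKM in the low and 822 to 1369 FPKM in the high libraries, with no overlap. ATP6V1A, the catalytic subunit, had 36.6, 46.5, 64.6 and 39.0 FPKM against 76.9 to 206 (median 136), and fell by 1.49 ± 0.22 (adjusted p = 0.01). ATP6V1B2 fell by 1.14 ± 0.19 (adjusted p = 0.011), ATP6V1D by 1.05 ± 0.23 (adjusted p = 0.022) and the neuronal subunit ATP6V1G2 by 1.5 ± 0.27 (adjusted p = 0.011). ATP6V1A and ATP6V1G2 were also apart in all libraries and kept the call without any of the 15.

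A list of 18 enzymes of glycolysis and of the malate-aspartate shuttle, which carries reducing equivalents into mitochondria, was chosen after the values were seen. All 18 were lower, 7 by the call, with a median of -0.92 and stage medians of -0.89, -0.74 and -1.02. The sums were 911, 2103, 1440 and 1400 FPKM in the low and 2348 to 3660 FPKM in the high libraries. MDH1, the cytosolic malate dehydrogenase, had 68.6, 161, 159 and 88.0 FPKM against 203 to 568 (median 344), and fell by 1.62 ± 0.26 (adjusted p = 0.01), a 3.07-fold lower level. GOT1, the cytosolic aspartate aminotransferase, had 11.9, 47.2, 40.1 and 8.99 FPKM against 50.8 to 134, and fell by 1.71 ± 0.32 (adjusted p = 0.013). Its mitochondrial partner GOT2 fell by 1.03 ± 0.21 (adjusted p = 0.019) and the carrier SLC25A11 by 1.02 ± 0.21 (adjusted p = 0.019). MDH1 and GOT1 did not overlap between the classes and kept the call without any of the 15 libraries. Not every glycolysis gene was lower. In the separate list of hypoxia and glycolysis genes 10 of 12 were above 0 and 2 below, none by the call. There HK2, a glycolytic enzyme at a mean of 0.285 FPKM, differed by 1.11 ± 0.51 (adjusted p = 0.21).

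Nuclear genes of the respiratory chain were shifted by less. Of 56 tested, 54 were lower and 39 had an unadjusted p under 0.05 on that side (15.7% of all genes did), but only NDUFA6 was called, and the median was -0.61, with stage medians of -0.81, -0.86 and -0.08. NDUFA6, a complex I subunit, had 25.1, 29.7, 15.4 and 32.2 FPKM against 36.5 to 81.0, and fell by 1.13 ± 0.23 (adjusted p = 0.018). NDUFS3, a core subunit of complex I, had 18.2, 30.6, 23.9 and 21.4 FPKM against 33.7 to 49.9, a difference of -0.84 ± 0.16 (adjusted p = 0.014) that stayed under the size needed for a call. The subunits summed to 2279, 3100, 2452 and 3986 FPKM in the low and 3634 to 5397 FPKM in the high libraries, and M6 replicate 3 lay inside the high range. The 13 mRNAs made in the mitochondrion gave no call, a median of -0.17, and sums from 8147 to 26482 FPKM in the low class that spanned the whole high range of 11107 to 16710 FPKM. Of 80 cytosolic ribosomal protein genes none was called, with a median of -0.11, but the single low libraries lay far apart, with a median of -0.89 in M4 and 0.58 in M6.

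Genes of protein folding and turnover also leaned to the low side. Of 11 heat shock chaperone genes, 9 were lower and 2 fell by the call, with a median of -0.61. HSPA4L, an HSP110 family chaperone, had 21.5, 25.2, 38.6 and 23.1 FPKM against 33.4 to 69.1, and fell by 1.03 ± 0.19 (adjusted p = 0.013). Its relative HSPH1 had 19.0, 28.5, 43.8 and 12 FPKM against 41.0 to 266. HSPH1 fell by 1.48 ± 0.38 (adjusted p = 0.04), a call kept without only 5 of the 15 libraries in turn. All 15 chaperones of the endoplasmic reticulum were lower, none by the call, with a median of -0.45. Among them HSPA5, the main chaperone of that compartment, had 73.7, 137, 121 and 216 FPKM against 149 to 312, a difference of -0.85 ± 0.25 (adjusted p = 0.066). HERPUD1, of the pathway that clears misfolded proteins, differed by -0.70 ± 0.15 (adjusted p = 0.019), with no low library above its lowest high one of 22.9 FPKM. Of 38 proteasome subunits, 35 were lower and none was called, with a median of -0.46, which was -0.77 in M2, -0.67 in M4 and 0.11 in M6. PSMD10, an assembly factor of the proteasome, had 16.7, 15.5, 18.8 and 25.4 FPKM against 27.1 to 41.6, a difference of -0.84 ± 0.17 (adjusted p = 0.019).

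Next come the 12 genes named for the largest falls. RIIAD1, a gene with a domain of the regulatory subunit of protein kinase A (chromosome 3), was listed at 0 in 3 low libraries and at 0.0509 FPKM in M2 replicate 1, against 0.998 to 8.58 FPKM in the high class (log2 difference -4.41 ± 0.52, adjusted p = 0.003). OPRK1, the kappa opioid receptor that prodynorphin peptides act on, had 1.5, 3.35, 0.518 and 0.576 FPKM against 1.86 to 22.1 (median 6.36), and fell by 2.66 ± 0.53 (adjusted p = 0.017). NELL2, a secreted neuronal glycoprotein, had 8.93, 10.2, 9.47 and 4.57 FPKM against 15.2 to 223, and fell by 2.56 ± 0.48 (adjusted p = 0.013). The classes did not overlap for RIIAD1 and NELL2, and for OPRK1 only M2 replicate 3 reached the high range. EFNB3, a ligand of Eph receptors, had 3.10, 3.44, 1.09 and 1.05 FPKM against 5.35 to 35.9, without overlap, and fell by 2.56 ± 0.44 (adjusted p = 0.011). RGS4, which damps G protein signalling in neurons, fell by 2.43 ± 0.66 (adjusted p = 0.049), a call that 11 of the 15 libraries each removed when left out. DGAT2, of triglyceride synthesis, and ELOVL3, a fatty acid elongase, fell by 2.77 ± 0.65 and 2.53 ± 0.54 (adjusted p = 0.029 and 0.021). The others were RESP18 (above), DLK2, CGREF1, OSCP1 and MEGF9, with differences of -2.89, -2.60, -2.44 and -5.59.

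MEGF9, a membrane protein with EGF repeats, did not vary in a graded way. It stood at 0.0274, 0.358, 0.481 and 0.0765 FPKM in the low libraries, at 0.355 FPKM in M2 replicate 2 and 0.345 FPKM in M4 replicate 4, both high libraries, and at 27.7 FPKM or more in the other 9. Such a gap, with no library between the states, also stood in COX3 of the mitochondrial genome, at 1012 to 1118 FPKM in replicate 5 of M2, M4 and M6 and at 1.16 to 2.99 FPKM in the other 12 libraries. The files hold no counts, and whether these states lie in the transcripts or in how fragments were assigned to genes was not tested, so the size of the MEGF9 difference should not be read as a graded fall. The MEGF9 state went with alignment rate only in part, since M6 replicate 2 at 90.62% had 32.1 FPKM.

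**Figure D2:**
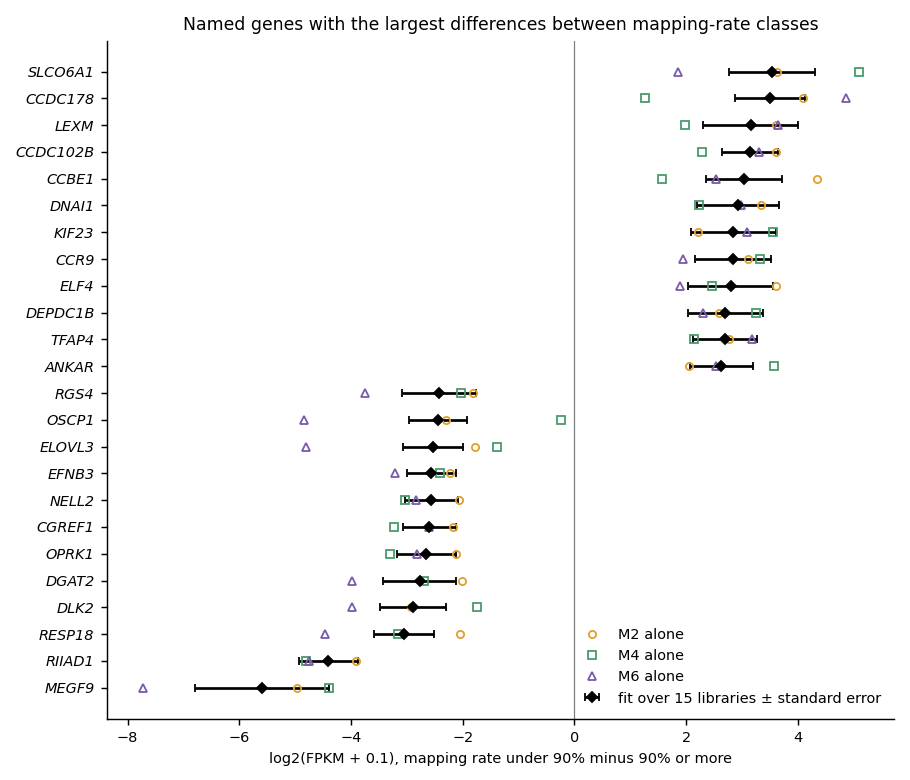
Low minus high difference on the log2(FPKM + 0.1) scale (horizontal axis) of the 12 genes named for the largest rises and the 12 for the largest falls (vertical axis); black diamonds with bars are the fit over 15 libraries ± SE, and open symbols the difference within M2 (2 low, 3 high libraries), M4 (1 and 4) and M6 (1 and 4). Each gene has the same sign in the 3 stages because the naming rule asked for it. M6, where the low class is a single library, gives the most negative value for 8 of the 12 falls.

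The genes that rose most were at low levels and of mixed function. CCDC102B, a centrosome linker protein (chromosome 24), had 5.88, 24.1, 4.28 and 8.20 FPKM against 0.343 to 1.90 (median 0.668), and rose by 3.14 ± 0.50 (adjusted p = 0.01), 8.81-fold. SLCO6A1, of the organic anion transporter family, had 8.98, 3.41, 9.04 and 2.12 FPKM against 0 to 1.52 FPKM, and rose by 3.54 ± 0.76 (adjusted p = 0.022). CCBE1, a secreted protein of lymphatic vessel growth, had 10.2, 8.09, 2.76 and 4.86 FPKM against 0.0962 to 3.88 FPKM, and rose by 3.04 ± 0.68 (adjusted p = 0.025). CCDC102B and SLCO6A1 did not overlap between the classes. TFAP4, a helix-loop-helix transcription factor, had 1.13, 4.75, 1.74 and 3.59 FPKM against 0.0527 to 0.952, without overlap, and rose by 2.70 ± 0.57 (adjusted p = 0.021). KIF23, a motor protein of cell division, had 6.85, 0.891, 3.22 and 3.79 FPKM against 0.0404 to 1.96, and rose by 2.84 ± 0.76 (adjusted p = 0.047). CCR9, a chemokine receptor of lymphocytes, ELF4, an ETS transcription factor, and DEPDC1B rose by 2.84, 2.79 and 2.70. CCDC178, LEXM, DNAI1 and ANKAR rose by 3.51, 3.15, 2.92 and 2.63. CCDC178 had 6.18, 6.91, 0.296 and 4.17 FPKM against 0 to 0.761, so that M4 replicate 3 lay inside the high range. CCDC102B, CCDC178 and TFAP4 kept the call without any of the 15 libraries, whereas ELF4, KIF23 and LEXM kept it without only 2, 3 and 4 of them.

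Matrix and growth factor genes supplied further rises. Of 54 collagen and laminin genes, a list chosen after the values were seen, 48 were higher and 4 rose by the call, with a median of 0.64 that was 1.32 in M2, 0.35 in M4 and -0.03 in M6. LAMA3, a laminin chain of epithelial basement membranes, had 6.58, 1.55, 5.12 and 4.88 FPKM against 0.150 to 1.99, and rose by 2.58 ± 0.54 (adjusted p = 0.019). LAMB4 had 5.83, 5.79, 6.93 and 3.70 FPKM against 0.180 to 4.87 and rose by 2.48 ± 0.54 (adjusted p = 0.022). COL27A1, a fibrillar collagen, had 5.36, 21.8, 7.75 and 1.33 FPKM against 0.338 to 3.2 and rose by 2.47 ± 0.58 (adjusted p = 0.029). M2 replicate 3 lay inside the high range for LAMA3, and M6 replicate 3 did so for LAMB4 and COL27A1. COL14A1 rose by 1.32 ± 0.34 (adjusted p = 0.043), a call kept without only 5 of the 15 libraries in turn.

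Of 32 genes of BMP and TGF-beta signalling, also listed after the values were seen, 4 rose and 1 fell, with a median of 0.23. BMP1, the protease that cuts procollagen, had 8.66, 7.25, 5.23 and 4.16 FPKM against 1.18 to 3.54 (median 2.16), without overlap, and rose by 1.40 ± 0.30 (adjusted p = 0.021). SMAD6, an inhibitor of the pathway, had 13.5, 12, 8.76 and 2.98 FPKM against 1.19 to 5.37 and rose by 1.45 ± 0.35 (adjusted p = 0.033). LTBP4, which holds latent TGF-beta in the matrix, had 1.99, 4.90, 2.23 and 2.06 FPKM against 0.518 to 1.85, without overlap. It rose by 1.5 ± 0.39 (adjusted p = 0.042), a call kept without only 3 of the 15 libraries in turn. BMP3, a ligand of the family, had 0.382, 1.02, 0.257 and 0.666 FPKM against 0.913 to 6.99 and fell by 1.91 ± 0.49 (adjusted p = 0.041).

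Other cells of the tissue gave almost no call. Of 16 markers of mature oligodendrocytes, the cells that make myelin, all were above 0 and none was called, with a median of 0.72 that was -0.39 in M2, 1.53 in M4 and 1.58 in M6. They summed to 2442, 6402, 8491 and 17084 FPKM in the low and 546 to 11439 FPKM in the high libraries, so that M6 replicate 3, lowest in neuron markers, was highest here. MOBP, a myelin protein gene, had 611, 550.1, 1342 and 1070.1 FPKM against 54.7 to 773, a difference of 1.51 ± 0.76 (adjusted p = 0.26). Oligodendrocyte progenitor markers had a median of 0.60 over 7 genes, and the 13 astrocyte markers one of -0.20, among which the glutamate transporter SLC1A3 differed by -0.72 ± 0.33 (adjusted p = 0.21). Microglia markers had a median of 0.14 over 15 genes, with the receptor TREM2 at 8.63, 5.79, 4.25 and 8.21 FPKM against 0.815 to 9.23 (adjusted p = 0.09). The microglial sum of M2 replicate 1, 498 FPKM, was above the high range of 100.2 to 339 FPKM.

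Endothelial markers summed to 172, 199.7, 92.6 and 84.5 FPKM against 76.9 to 143 FPKM, so that both M2 low libraries were above the high class and the other low libraries inside it. Their median was 0.29 over 12 genes, 0.94 in M2 and -0.38 in M6. Pericyte and smooth muscle markers had a median of 0.65 over 8 genes, and fibroblast markers one of 0.89 over 6, with a fibroblast sum of 303 FPKM in M2 replicate 3 against 22.4 to 91.1 FPKM in the high class and 47.9 FPKM, inside that range, in M2 replicate 1. Markers of ciliated ependymal cells summed to 54.9, 25.0, 20.3 and 29.7 FPKM against 5.81 to 88.2 FPKM, all inside the high range, with a median of 0.72 over 9 genes. Of these only DNAI1, a dynein chain of cilia, was called, at 2.35, 3.49, 2.63 and 2.75 FPKM against 0.0160 to 2.55 (2.92 ± 0.73, adjusted p = 0.038), a call kept without only 6 of the 15 libraries. DNAH9, another ciliary dynein, differed by 1.84 ± 0.60 (adjusted p = 0.086). Choroid plexus, pituitary, erythroid, leucocyte and skeletal muscle markers gave 22 tested genes in all and no call, and none of their sums passed 17.2 FPKM. The part of these cell types in the matrix and neuronal results was not tested.

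**Figure D3:**
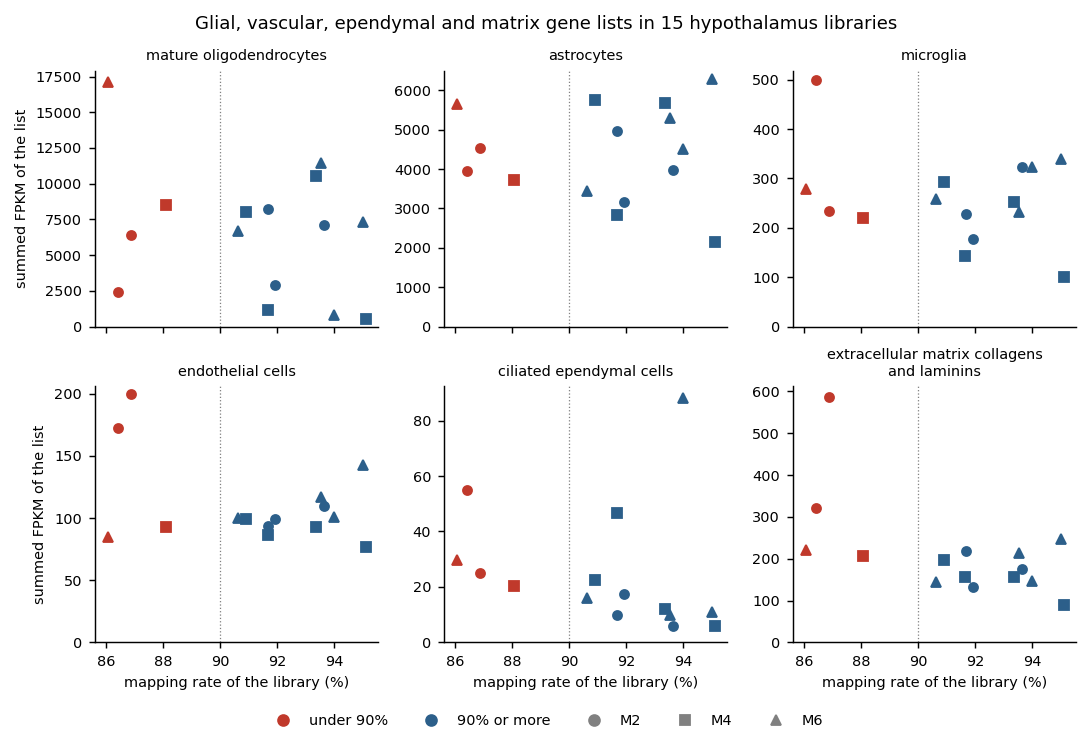
Summed FPKM of 6 lists of glial, vascular, ependymal and matrix genes (vertical axes, from 0) against the alignment rate of each library in percent (horizontal axes), drawn as for the neuronal lists. The 2 low M2 libraries lie above all high libraries for endothelial and for matrix genes, and M6 replicate 3 has the highest oligodendrocyte sum, 17084 FPKM.

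Lists tied to RNA handling or stress showed little. Splicing factors had a median of 0.08 over 24 genes and zinc finger genes, whose mRNAs are mostly short-lived, one of -0.07 over 233 genes, of which ZNF777 rose (1.3 ± 0.34, adjusted p = 0.044) and ZNF71 fell (1.2 ± 0.31 lower, adjusted p = 0.04). Immediate early genes, which respond within minutes to activity or injury, had a median of -0.03 over 21 genes and no call, and ATF3 differed by 1.87 ± 0.69 (adjusted p = 0.12). Hypoxia and glycolysis genes had a median of 0.14 over 12 and inflammatory genes one of 0.18 over 9, both without a call. Among the inflammatory genes TNFAIP3 differed by 1.21 ± 0.39 (adjusted p = 0.084). Of 17 interferon-stimulated genes, CMPK2, a mitochondrial nucleotide kinase, was called, at 3.29, 3.18, 4.11 and 0.779 FPKM against 3.73 to 10.6 (fell by 1.48 ± 0.33, adjusted p = 0.024). These lists therefore lay within 0.28 of the median of all genes, apart from the chaperones described above.

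**Figure D4:**
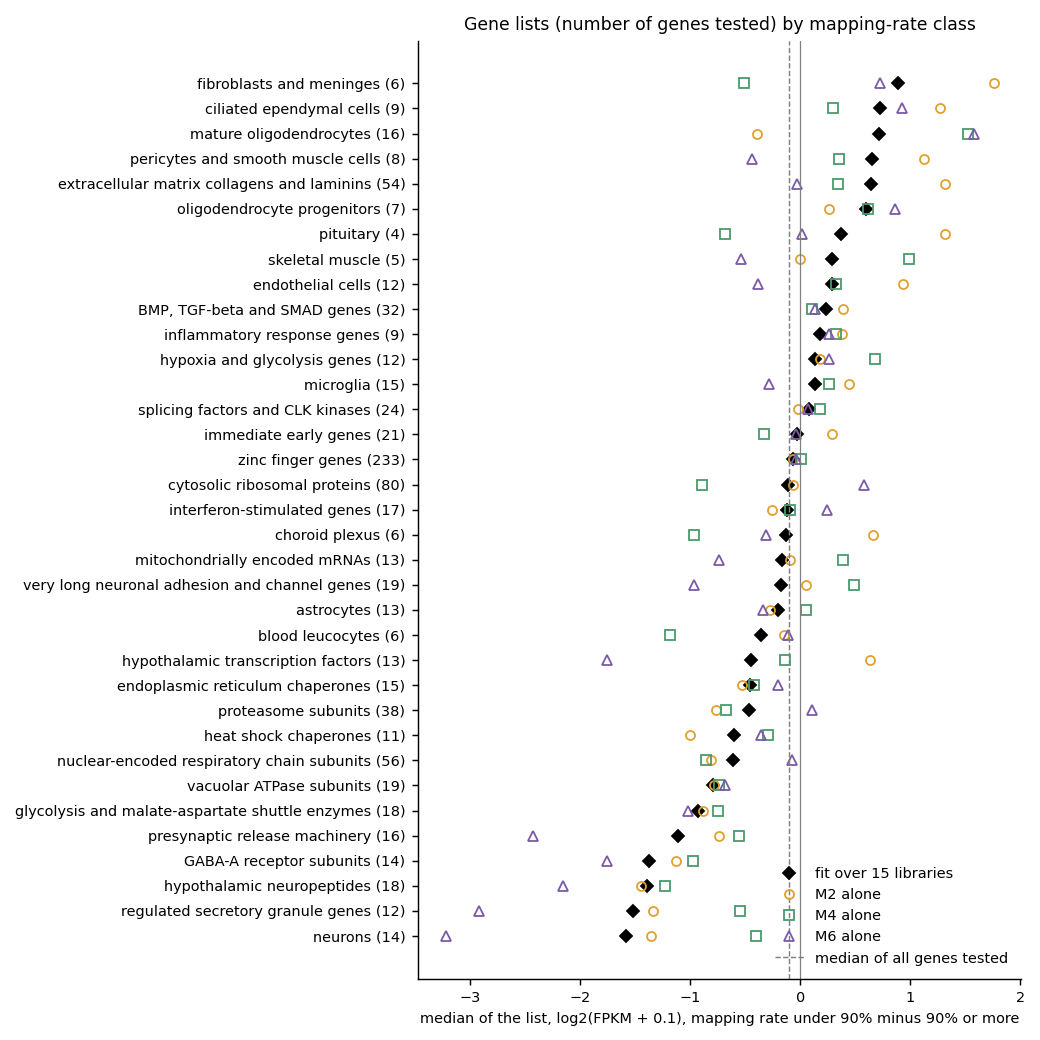
Median low minus high difference of each gene list on the log2(FPKM + 0.1) scale (horizontal axis), for the 35 lists with at least 4 genes tested (vertical axis, number tested in brackets); black diamonds are the fit over 15 libraries, open symbols each stage alone, and the dashed line the median of all genes, -0.10. Neuronal, granule, neuropeptide and GABA-A lists lie lowest. The vacuolar ATPase list and the list of glycolysis and shuttle enzymes have nearly the same value in the 3 stages. The neuron list runs from -0.40 in M4 to -3.22 in M6.

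Gene span, the distance from the start to the end of a gene in the genome, went with rises more than with falls. Genes were put into 10 bins of equal number by span. In the shortest bin, up to 3.55 kb, 0.184% were called higher and 2.33% lower. In the longest bin, from 145 to 2365 kb, 2.09% were called higher and 2.15% lower. The share called lower lay between 1.53% and 2.58% in all bins, whereas the share called higher was at most 0.430% in the 5 shorter bins and at least 0.983% in the 5 longer ones. The median span was 60.7 kb for the genes that rose, 23.9 kb for those that fell and 22.8 kb for all genes. The median difference went from -0.22 in the shortest to -0.03 in the longest bin, a course that was steepest in M4 (-0.42 to 0.13) and absent at the long end in M6 (-0.26 to -0.24). Without 1 low library in turn it ranged from -0.30 to -0.15 in the shortest and from -0.12 to 0.08 in the longest bin, where the sign therefore rested on which libraries were kept. Long genes were also expressed at higher levels, with a median of 10.1 FPKM in the longest and 2.22 FPKM in the shortest bin, and exon length was not used here.

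**Figure D5:**
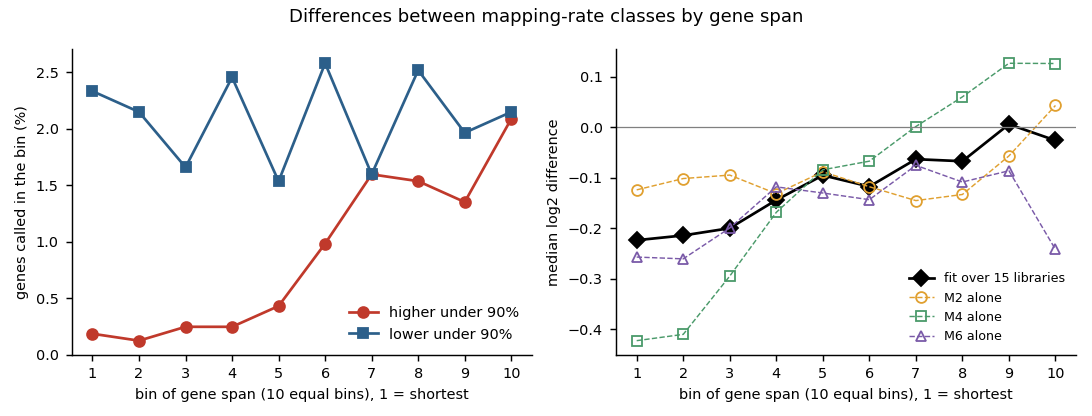
Left, percent of genes called higher or lower in the low class (vertical axis, from 0) in each bin of gene span (horizontal axis, 1 the shortest, up to 3.55 kb, 10 the longest, from 145 kb); right, median log2 difference in each bin over 15 libraries and in each stage alone. Called rises go from 0.184% to 2.09% while called falls stay between 1.53% and 2.58%.

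Of genes without a functional name, 17 of the 145 rises and 22 of the 343 falls had LOC or assembly names (11.7% and 6.41%), against 14.1% of all genes tested. LOC102186941 had 1.84, 1.78, 2.96 and 5.72 FPKM against 0 to 0.888 and rose by 2.95 ± 0.61 (adjusted p = 0.019). LOC102170123 had 8.27, 8.62, 12.9 and 3.79 FPKM against 16.5 to 98.1 and fell by 2.44 ± 0.39 (adjusted p = 0.01). Both were apart in all 15 libraries. Of the 21071 genes in the file, 7 were at 0 in all high libraries and at 0.1 FPKM or more in at least 2 low ones, and 290 showed the opposite, with 11 high libraries offering more chances than 4 low ones. CRH, the gene of the corticotropin-releasing hormone, was listed at 0 in the 4 low libraries, at 0 in 2 high libraries and at up to 3.65 FPKM in the others.

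Within the high class the alignment rate still ran from 90.62% to 95.1%, and a fit on those 11 libraries alone asked whether genes leaned the same way there. No gene passed the test, with 230 higher and 463 lower towards low rates at an unadjusted p under 0.05. Per 5 percentage points less, the median was 0.16 for the 145 genes, -0.26 for the 343 genes and -0.03 for all genes. Of these, 89 of the 145 were above 0 and 249 of the 343 below 0, but the same 11 libraries had served to choose those genes, so these values are a description.

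A difference between stages cannot be told apart from a single outlying library here, since M4 and M6 have 1 low library each. By limma's F test of the interaction, 25 genes (0.149% of genes tested) had an adjusted p under 0.05 and 2158 an unadjusted p under 0.05, and 3 of the 25 were among the 488 called genes. In each of the 25 a low library lay above or below all 14 others. NEFL, a neurofilament gene, had 57.5, 69.6, 165 and 6.80 FPKM against 62.8 to 133 FPKM, and VAMP1, a vesicle fusion protein, had 9.58, 23.8, 25.8 and 0.375 FPKM against 7.76 to 24.4 FPKM. In both, M6 replicate 3 was far below every other library and M4 replicate 3 above all high libraries.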

How the data were processed

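Total RNA of 20 hypothalami was sequenced as paired reads. The authors aligned the reads with HISAT2 (2.0.5) to the goat genome ARS1.2, assembled transcripts and estimated levels with StringTie (1.3.3b), and deposited FPKM values per gene (21071 genes), with no counts, so that counting error per gene is unknown and was not modelled. Alignment rates and clean read numbers per library came from the study's alignment table. Libraries were grouped by stage from the titles.

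The 15 M2, M4 and M6 libraries were compared by limma 3.58.1 (R 4.3.3) on log2(FPKM + 0.1), with stage and class as terms and a trend in the prior variance, over 16730 genes at 0.1 FPKM or more in at least 4 libraries. Adjustment was by Benjamini-Hochberg over all of these. Each library is 1 goat, so p-values measure the spread between goats. Library measures were compared by a two-sided exact permutation test within stages (250 assignments). Gene lists have counts and medians only. The members of each class and the lists were chosen with earlier results of these data known, and 6 of the 36 lists after the values were seen. Replication-dependent histones, also listed, matched no gene. Named genes were the 12 largest rises and 12 largest falls among called genes with one sign in all 3 stages, a mean of at least 1 FPKM and a gene symbol, up to 3 LOC names in each direction, and up to 4 members of each list with the smallest p. MEGF9 and COX3 were described together, and CRH, CPLX1, NEFL and VAMP1 named, after their values were seen. Gene span and positions came from the RefSeq annotation of ARS1.2, and 461 genes had none. Exon length, exon number and GC content of genes were planned and not run. The fit was also run on simulated data with planted shifts and independent normal noise for each gene. That setting held no outlying library and no correlation between genes. Figures were drawn with matplotlib 3.10.9. Other stages, scales, filters and left-out libraries were tried as alternatives. Some genes that the rule would name are not reported here.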

Additional observations from a re-analysis of the deposited data

Results flagged for a closer look

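Among the 4 low libraries, 7 of the genes described had a library far from the other 3 by Dixon's ratio, the gap to the nearest value over the whole range on the log2(FPKM + 0.1) scale, above the critical value for 4 samples. Chance flags about 1 in 20 such groups, and 79 genes were looked at. The ratio was 0.843 for DEPDC1B (4.58 FPKM in M2 replicate 3, 2.23 to 2.5 in the others) and 0.874 for LTBP4 (4.90 FPKM in M2 replicate 3, 1.99 to 2.23). It was 0.895 for ZNF777 (19.3 FPKM in M2 replicate 1, 5.29 to 6.07). In M6 replicate 3 the value was the low one for NELL2 (ratio 0.835, 4.57 FPKM against 8.93 to 10.2), CMPK2 (0.84, 0.779 against 3.18 to 4.11) and ELOVL3 (0.86, listed at 0 against 0.764 to 1.13). For RIIAD1 the ratio was 1.0, since 3 libraries were listed at 0 and M2 replicate 1 at 0.0509 FPKM, a difference too near 0 to read.

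The low minus high difference varied between stages for 25 genes by limma's interaction test at an adjusted p under 0.05. With 1 low library each in M4 and M6, such a difference cannot be told apart from a single outlying library. CPLX1, of the release machinery, was listed at 0 in M6 replicate 3. It stood at 9.09 to 10.2 FPKM in the other low libraries, above the high median of 5.26 FPKM. TOMM6, of the mitochondrial import pore, stood at 5.65 FPKM in M4 replicate 3 and at 26.1 FPKM or more in every other library. CLEC3B was at 24.1 and 36.4 FPKM in the 2 low M2 libraries and at 3.63 to 13.2 FPKM in the other 13.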

How the results depend on the processing

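The 145 rises and 343 falls kept their sign under both pseudocounts, every scale and each left-out library, but the counts moved. Rises and falls numbered 79 and 198 with the alignment rate as a continuous term (973 and 2466 at an unadjusted p under 0.05). They were 38 and 31 with the unique alignment rate (1143 and 2612 unadjusted). Both continuous fits applied the size condition per 5 points of rate. Counts were 2 and 0 at a cut of 92% (272 and 397 unadjusted), 32 and 88 with array weights and 94 and 202 without the variance trend. Falls numbered 177 after quantile normalization and 177 after median-ratio scaling. Rises numbered 222 without the stage term, 84 with read GC content as a term and 291 with D1 added. M2 alone gave 0 and 0 (1362 and 2242 unadjusted). By adjusted p alone, 592 fell. In alternatives chosen after the values were seen, the high libraries alone gave 0 and 0, the set without the 2 low M2 libraries 8 and 33, and rescaling without the 10 highest genes 100 falls. Without 1 library in turn, rises ranged from 38 to 241 and falls from 106 to 415. Genes that differed between stages numbered 62 with a pseudocount of 1 and 7 after quantile normalization. The causes of these shifts were not tested, beyond the fewer samples that some alternatives hold.

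Replicate numbers name separate goats. After stage and class were fitted, residuals of same-numbered libraries correlated at -0.37 to 0.10 over 15 pairs, 0 above 0.1. That fit also takes out what the low libraries share, so it cannot show pairing among the low libraries numbered 3. COX3 stood at 1012 to 1118 FPKM in replicate 5 of M2, M4 and M6 and at 2.99 FPKM or less elsewhere. Whether replicate number stands for something shared was not tested further. With the replicate block, 0 genes rose and 3 fell (1241 and 1093 unadjusted), in a design where 3 of the 4 low libraries carry the same number. List medians under the block were 0.96 for mitochondrial mRNAs, 0.34 for ribosomal proteins, -1.12 for respiratory chain, -0.94 for proteasome, 0.53 for splicing, 0.18 for zinc finger, -1.47 for immediate early, -1.49 for heat shock and -1.06 for endoplasmic reticulum genes. They were -2.24 for neurons, 0.47 for very long neuronal genes, 2.86 for hypothalamic transcription factors, 1.87 for microglia, 0.83 for endothelium, 0.15 for pericytes, -1.02 for fibroblasts, 2.79 for ependymal cells, -1.03 for pituitary, -3.43 for erythroid cells, -1.06 for leucocytes and 0.77 for muscle. COL14A1 turned to -0.071 under the block and PDYN to 0.22 at a cut of 92%.

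Other list medians moved by more than the spread between libraries. At a cut of 92% they were -0.22 for respiratory chain, -0.21 for proteasome, -0.98 for neurons, -0.042 for endothelium, -0.038 for pericytes and -0.25 for fibroblasts. Per 5 points of unique alignment rate they were -0.31 for respiratory chain, -0.24 for proteasome, -0.39 for heat shock, -0.24 for endoplasmic reticulum genes and -0.71 for neurons. In M2 alone they were -0.77 for proteasome, -1.0 for heat shock, 0.63 for hypothalamic transcription factors, 0.94 for endothelium, 1.12 for pericytes, 0.66 for choroid plexus and 1.31 for pituitary. The proteasome median was -0.25 after quantile normalization and -0.29 with the continuous rate, and that of very long neuronal genes 0.29 with array weights. Without 1 library in turn, medians ranged from -1.96 to -0.86 for neurons, -0.71 to -0.38 for proteasome, 0.094 to 0.67 for endothelium, -0.27 to 0.80 for pituitary, 0.21 to 0.85 for muscle and -0.31 to 0.30 for very long neuronal genes. They ranged from -1.34 to -0.68 for presynaptic genes, -2.14 to -1.0 for neuropeptides, 0.39 to 1.08 for mature oligodendrocytes, 0.24 to 1.13 for fibroblasts, 0.40 to 1.02 for pericytes and -0.46 to -0.10 for astrocytes. Medians changed sign for hypothalamic transcription factors (-1.03 to 0.21), ribosomal proteins (-0.40 to 0.21), mitochondrial mRNAs (-0.45 to 0.15), immediate early genes (-0.17 to 0.26), splicing (-0.066 to 0.19), microglia (-0.056 to 0.35), choroid plexus (-0.60 to 0.035), leucocytes (-0.51 to 0.12) and erythroid cells (-1.57 to 0.068).

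Stage-centred differences of library measures ranged, without 1 low library in turn, from -20072 to 17434 for summed FPKM, -239 to 33.3 for genes at 0.1 FPKM or more, 3.02 to 8.88 points for the 10 highest genes, 3.99 to 9.11 for the 100 highest, -1.30 to 0.799 for mitochondrial mRNAs, -0.925 to 0.884 for ribosomal proteins and -0.678 to 0.348 for LOC genes. Without strata they were 8.23, 7.80, 0.154 and 0.478 points for the 10 highest, the 100 highest, mitochondrial and LOC genes. The permutation test without strata gave an unadjusted p = 0.038 for the 10 highest and p = 0.035 for the 100 highest genes. The main permutation test, within stages, gave p = 0.068 and p = 0.06 for them, with adjusted p = 0.238 for both over 7 measures. With 4 low libraries, 1 each in M4 and M6, and FPKM without counts, small differences and those of genes near 0 were not resolved.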
